A study of Mus musculus with 2 samples.

Results

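The 9 genes described here are surface and granule markers of lymphocytes, the T and B cells of the adaptive immune system and their cytotoxic relatives. They are the T cell genes Cd3d, Cd3e, Cd3g, Cd4 and Cd8a, the B cell genes Cd79a, Cd79b and Ms4a1, and Nkg7, a gene of cytotoxic cells. They were taken by gene name from the non-control probes of a one-colour Agilent whole mouse genome array. All 9 were present, out of 27962 gene names, as 15 probes in 33 spots. The question was whether the lymphocyte signal of the liver differed between 2 diets. Total RNA came from the liver of male C57BL/6 apoE-KO mice, which lack apolipoprotein E and have high plasma cholesterol. From 10 weeks of age, these mice received normal chow or the high-Chol diet, the same chow with 1.25% cholesterol, for 1 week. Each diet was measured on 3 arrays. Every mouse carried the apoE knockout, so that no array shows a liver with apoE. The RNA was of whole liver tissue, in which lymphocytes are a small part of the cells. Nothing in the labels says whether 1 array held RNA of 1 animal, and p-values therefore measure only the spread between these arrays.

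Mature T cells recognise antigen through the T cell receptor, whose signal is passed into the cell by the CD3 chains. CD4 and CD8 are the co-receptors that separate helper from cytotoxic T cells. B cells carry membrane immunoglobulin, whose signalling partners are CD79a and CD79b, and the surface protein CD20, the product of Ms4a1. The liver holds resident and passing lymphocytes beside its macrophages, the Kupffer cells, and is known for its many natural killer cells.

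A level below is the log2 of the processed spot signal minus the 75th percentile of that array, so that 0 is the brightness exceeded by 1 spot in 4 on the same array. Levels of different probes are not comparable, because each probe has its own binding strength. A probe was well above background on an array when the scanner software called it so. Normal chow arrays 1, 2 and 3 and high-Chol array 1 shared slide 1. High-Chol arrays 2 and 3 were on slide 2, a separate scan that was read with another version of the scanner software. Before scaling, the 75th percentile was 271 to 373 signal units on slide 1 and 762 to 799 on slide 2. Between 50.5% and 67.2% of the non-control spots were well above background, with the lowest share on normal chow array 1. The liver label was borne out by albumin (Alb1), the main plasma protein of hepatocytes, whose level lay between 9.05 and 9.64 on the 6 arrays. Its mean was 9.52 ± 0.10 (SD, n = 3) in the normal chow group, against 9.18 ± 0.17 (SD, n = 3) after high-Chol feeding.

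A probe each of Cd3d, Cd3g, Cd79a, Cd4 and Nkg7 is given first, as its 60 bases from 5′ to 3′ with the position in the array design (mouse build mm7). For Cd3d, Cd3g and Cd79a the annotated position is longer than the probe, at 232, 585 and 258 bases, so that these probes cross an intron and were designed on spliced mRNA. The Nkg7 probe shown is the dimmer of its 2 probes, which repeats the measurement of the only gene that passed the test, while the values of the other 4 genes come from the probes shown.
Cd3d, A_51_P285206, chr9:44920433-44920664, plus strand: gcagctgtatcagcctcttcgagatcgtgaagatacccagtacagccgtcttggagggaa
Cd3g, A_51_P260889, chr9:44907978-44908562, minus strand: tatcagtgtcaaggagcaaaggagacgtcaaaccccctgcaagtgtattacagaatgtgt
Cd79a, A_52_P651316, chr7:21688822-21689079, plus strand: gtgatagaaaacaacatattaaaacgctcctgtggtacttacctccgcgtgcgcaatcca
Cd4, A_52_P383089, chr6:124894079-124894138, minus strand: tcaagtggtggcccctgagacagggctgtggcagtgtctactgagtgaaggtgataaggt
Nkg7, A_51_P499195, chr7:39613348-39613407, plus strand: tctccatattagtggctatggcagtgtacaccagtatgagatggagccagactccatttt

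Of the 9 genes, Nkg7 rose on the high-Chol diet and none fell. The call of Nkg7 was lost with the slide as a block (limma, adjusted p = 0.447), where its difference of 0.97 rested on high-Chol array 1. It was also lost with the normexp background correction (difference 0.00 at an offset of 50), under which limma called 0 of 16730 genes. With limma over 16730 genes and Benjamini-Hochberg adjustment, 1 of the 9 was called higher at an adjusted p under 0.05, where 2.69% of all tested genes were, and 0 were called lower, where 0.227% were. At an unadjusted p under 0.05, 4 of the 9 were higher (Cd3d, Cd3g, Cd79b and Nkg7), against 12.3% of all genes, and 0 were lower, against 8.83%. The limma difference (high-Chol diet minus normal chow) was above 0 for 7 genes and below 0 for Cd4 and Cd79a. Its median over the 9 was 0.77 on the log2 scale, and -0.02 over all genes tested. With the slide as a block in the fit, the median of the 9 was 0.29. In 3 genes, Cd3d, Cd3g and Nkg7, every high-Chol array lay above every normal chow array, an order that 11.8% of all genes showed. In Cd79a every high-Chol array lay below every normal chow array, as in 14.0% of all genes. In the other 5 the diets overlapped. All 9 genes passed the filter on dim probes, but 5 were well above background on all 6 arrays. Cd3d, Cd3g and Cd8a passed it through the high-Chol diet alone, since normal chow array 1 was not well above background, and Cd79a passed it through normal chow alone, so that the counts and medians here are descriptions. In whole tissue, fewer cells of a type and less RNA per cell cannot be told apart.

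**Figure D1:**
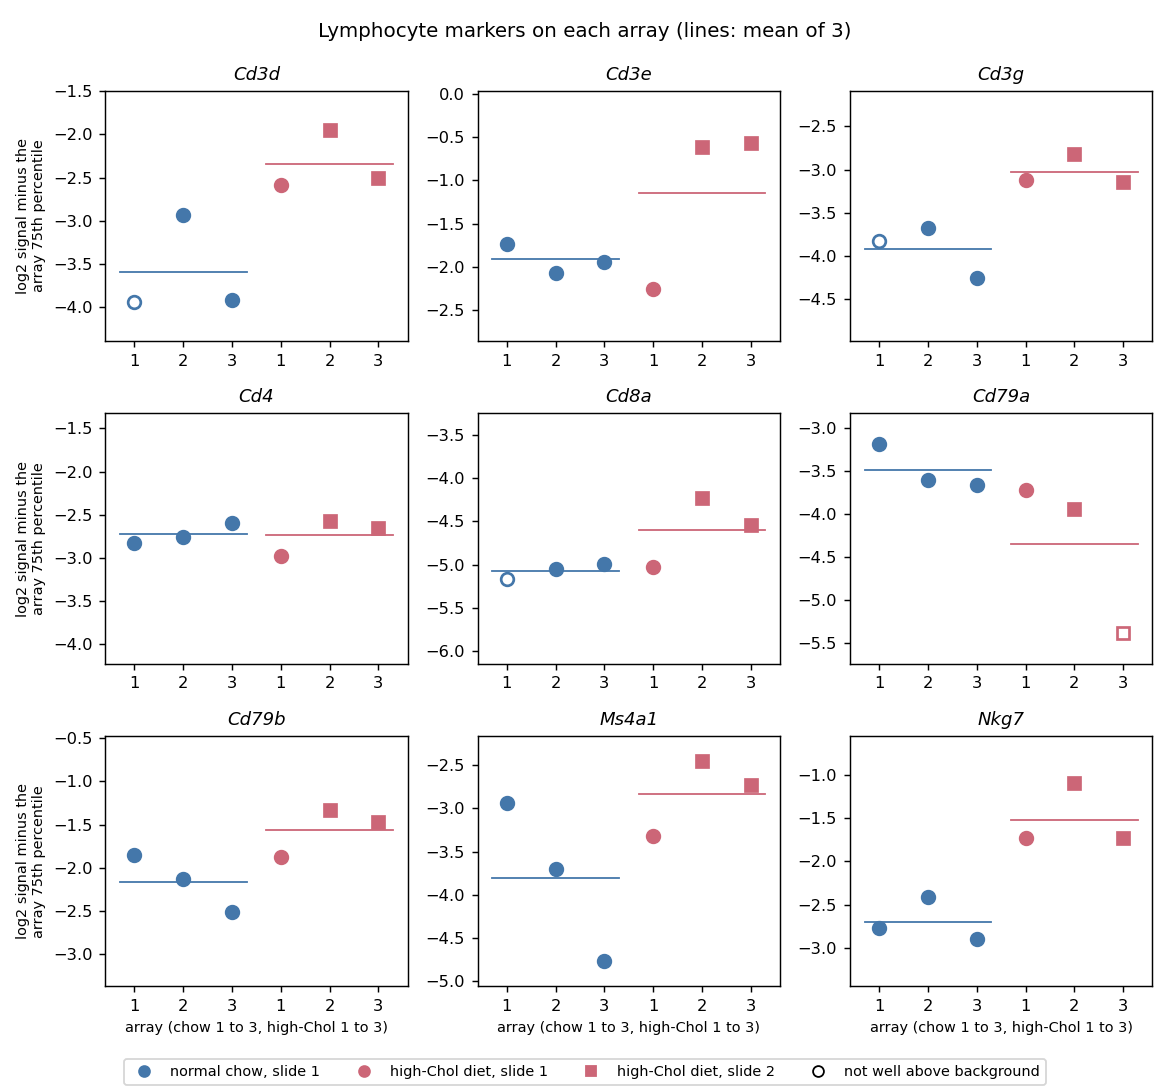
Each panel plots 1 gene, with the 6 arrays on the horizontal axis and the level (log2 processed signal minus the array's 75th percentile) on the vertical axis. Lines are the means of 3 arrays, squares are arrays of slide 2 and open symbols were not well above background. Panels have the same height in log2 units but different origins. Cd3d, Cd3g and Nkg7 are the 3 genes in which the high-Chol arrays lie above all normal chow arrays, and Cd79a is the one in which they lie below.

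Cd3d, Cd3e and Cd3g encode the delta, epsilon and gamma chains of CD3. The levels of Cd3d were -3.94, -2.93 and -3.92 on normal chow arrays 1 to 3, and -2.59, -1.95 and -2.50 on high-Chol arrays 1 to 3. All high-Chol arrays were higher than the highest normal chow array, and the spread within normal chow was the widest of the 3 chains. The difference was 1.25 (SE 0.32, 95% interval 0.49 to 2.00), or 2.38-fold, and missed the threshold (limma, adjusted p = 0.103). Cd3g gave -3.83, -3.67 and -4.26 with normal chow, against -3.12, -2.82 and -3.14 under high-Chol feeding. Here too the diets were separate, with less spread within each diet. The difference in Cd3g was 0.89 (SE 0.20, 95% interval 0.41 to 1.37), or 1.85-fold, with an adjusted p of 0.0738 (limma).

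Cd3e did not follow these 2 chains on every array. Its levels were -1.73, -2.07 and -1.95 with normal chow, against -2.26, -0.61 and -0.56 under high-Chol feeding. High-Chol arrays 2 and 3 were the highest of the 6, whereas high-Chol array 1 was the lowest. The difference was 0.77 with an SE of 0.45 (95% interval -0.28 to 1.83, limma adjusted p = 0.347). It was 1.33 without high-Chol array 1 (limma, adjusted p = 0.00504) and 0.51 and 0.48 without arrays 2 and 3 of that diet. This split ran along the slides, for the 2 high values were those of slide 2. A second Cd3e probe was not well above background on any array and adds no value.

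Cd4 and Cd8a were each read by a probe printed in 10 spots, which shows the spread between spots of 1 array. For Cd4, the co-receptor of helper T cells, the mean of the spots was -2.82, -2.76 and -2.59 with normal chow, against -2.98, -2.58 and -2.66 under high-Chol feeding. The diets overlapped almost fully. The limma difference was -0.01 (SE 0.17, adjusted p = 0.973), and its 95% interval, -0.41 to 0.39, corresponds to a ratio between 0.752 and 1.31. The SD over the spots of an array was 0.15 to 0.53, and on normal chow array 3 it came from 7 spots, 3 being outliers by the scanner's flags. A second Cd4 probe was not well above background on any array.

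Cd8a, a chain of the co-receptor of cytotoxic T cells, was near the limit of detection. Its 10-spot probe gave -5.17, -5.05 and -4.99 with normal chow, against -5.03, -4.22 and -4.54 under high-Chol feeding. High-Chol array 1 lay within the normal chow values and the other 2 above them. The difference was 0.47 (SE 0.22, 95% interval -0.05 to 1.00, limma adjusted p = 0.268). It was 0.69 without high-Chol array 1 (limma, adjusted p = 0.0361) and 0.29 without high-Chol array 2. It was 0.24 with median scaling, 0.15 with quantile normalization and 0.14 in the authors' means. Spots well above background numbered 0 of 10, 1 of 9 and 6 of 10 on the normal chow arrays, and 4 of 9, 6 of 10 and 9 of 10 on the high-Chol arrays. The SD over the spots of an array was 0.39 to 0.77.

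**Figure D2:**
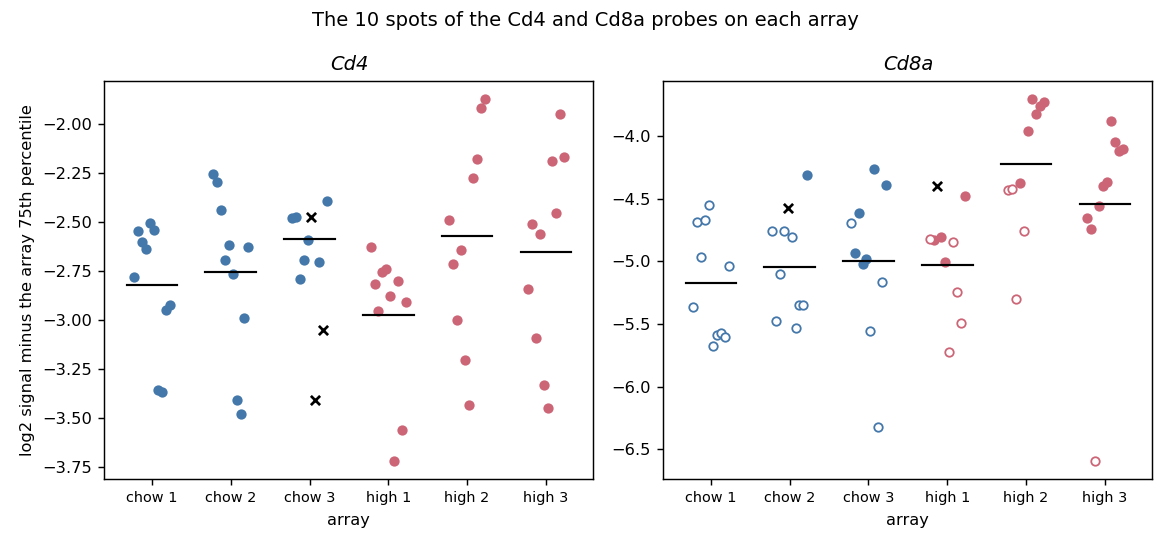
Each point is 1 of the 10 spots of the Cd4 probe (left) or the Cd8a probe (right), by array on the horizontal axis, with its level in log2 units relative to the array's 75th percentile on the vertical axis. Filled points were well above background, open points were not, crosses are outlier spots left out, and bars are means of the spots used. The spots of different arrays overlap widely, and nearly all Cd8a spots of normal chow arrays 1 and 2 are open.

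A further pair of Cd8a probes was above background only on high-Chol arrays 2 and 3. A_51_P345121 gave -5.69, -5.89 and -5.85 with normal chow, against -4.86, -3.99 and -4.24 under high-Chol feeding. It was not well above background on any normal chow array and on only 2 of the 3 high-Chol arrays, so that no fold is given. The other probe, A_52_P150547, lies at chr6:71391822-71391881 (mm7, plus strand). It is shown because it was well above background on the arrays of slide 2 alone:
Cd8a, A_52_P150547: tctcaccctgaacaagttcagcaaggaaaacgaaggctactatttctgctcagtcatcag
Its levels were -5.88, -5.78 and -5.89 with normal chow, against -6.19, -4.09 and -4.08 under high-Chol feeding, and no fold is given. As in Cd3e, both arrays of slide 2 were higher than the other 4.

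None of the 3 B cell genes passed the test, and their differences had both signs. Cd79a and Cd79b encode the alpha and beta chains of the signalling pair of the B cell receptor. The levels of Cd79a were -3.19, -3.60 and -3.66 with normal chow, against -3.73, -3.94 and -5.38 under high-Chol feeding. Every high-Chol array was lower, but high-Chol array 1 by only a little, and high-Chol array 3 was not well above background. The difference was -0.86 (SE 0.43, 95% interval -1.87 to 0.14, limma adjusted p = 0.285). Without high-Chol array 3 it was -0.35.

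For Cd79b the levels were -1.86, -2.13 and -2.51 with normal chow, against -1.88, -1.33 and -1.47 under high-Chol feeding. High-Chol array 1 lay within the normal chow values and the other 2 above them. The difference was 0.61 (SE 0.23, 95% interval 0.06 to 1.15) and did not pass the test over all genes (limma, adjusted p = 0.205). Whether Cd79a and Cd79b differed from each other in their response was not tested. Ms4a1, which encodes CD20, gave -2.93, -3.70 and -4.77 with normal chow, against -3.32, -2.46 and -2.73 under high-Chol feeding. The normal chow arrays alone spread over more than the difference between the means, which was 0.96 (SE 0.46, 95% interval -0.13 to 2.06, limma adjusted p = 0.275). It was 0.48 without normal chow array 3 and 1.40 without normal chow array 1. A second Ms4a1 probe was well above background on the 3 high-Chol arrays and on no normal chow array, with overlapping levels (limma on every probe, adjusted p = 0.218). With the normal chow arrays set to a floor, its ratio was 1.08-fold. As this floor, each dim array was given the lowest signal still called well above background on it, or its own signal where higher. The bright diet kept its mean. Uncalled spots can lie above that floor, as Cd8a spots did on normal chow arrays 2 and 3, so that such a ratio is no lower limit.

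Nkg7 encodes a granule protein of natural killer cells and cytotoxic T cells, and is therefore no marker of T cells alone. Its levels were -2.77, -2.42 and -2.90 with normal chow, against -1.73, -1.09 and -1.73 under high-Chol feeding. All 3 high-Chol arrays, on both slides, were above all normal chow arrays. The difference was 1.18 (SE 0.23, 95% interval 0.63 to 1.73), or 2.27-fold, with an adjusted p of 0.0493 (limma), just under the threshold. The second Nkg7 probe, whose sequence is given above, showed the same order. It gave -3.94, -3.44 and -4.19 with normal chow, against -2.69, -1.97 and -2.64 under high-Chol feeding, a difference of 1.43. It was not well above background on normal chow array 1 and passed the filter through the high-Chol diet alone. When every probe was tested by itself, the adjusted p of limma was 0.0505 for the first probe and 0.0462 for the second. The call was lost when any 1 array other than high-Chol array 1 was left out (adjusted p = 0.0992 to 0.144) and with the slide as a block (adjusted p = 0.447). Over all settings tried, the adjusted p of Nkg7 ranged from 0.0192 to 1.00. An exact two-sided permutation test of the 6 arrays gave p = 0.1 for Cd3d, Cd3g, Cd79a and Nkg7, the smallest value that 3 against 3 arrays allow.

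High-Chol array 1 is the only high-Chol array on the slide of the normal chow arrays, and it is therefore the one comparison within a slide. It lay above all normal chow arrays in 3 of the 9 genes, Cd3d, Cd3g and Nkg7, where 21.9% of all genes had that order. It lay below them in 3, Cd3e, Cd4 and Cd79a, where 32.8% of all genes did, and among them in the other 3. High-Chol arrays 2 and 3 both lay above all normal chow arrays in 7 of the 9, where 28.6% of all genes did. With the slide as a block, so that the diet difference rests on high-Chol array 1, the difference was 1.01 for Cd3d, 0.79 for Cd3g and 0.97 for Nkg7. The blocked difference was -0.34 for Cd3e, -0.25 for Cd4 and 0.045 for Cd8a. In the B cell genes it was -0.24 for Cd79a, 0.29 for Cd79b and 0.48 for Ms4a1. None of the 9 was called in that fit, where 0.0658% of all genes were called higher. Without high-Chol array 1, which leaves the diets on separate slides, 5 of the 9 were called higher: Cd3d, Cd3e, Cd3g, Cd8a and Nkg7. In that fit 17.8% of all genes were called higher. Without any other array the count was 0. The part of the slide in these differences was not tested.

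**Figure D3:**
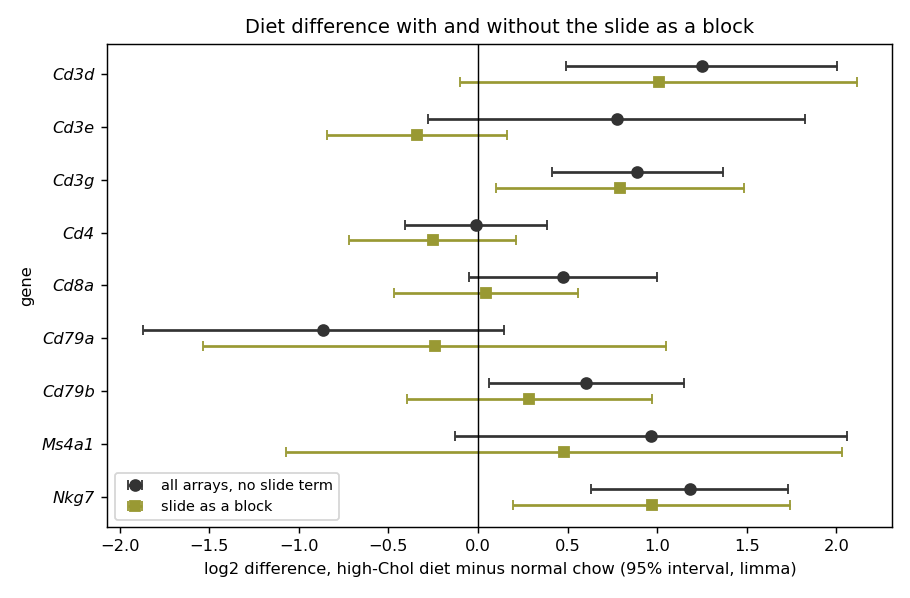
The log2 difference between the diets (high-Chol diet minus normal chow) is plotted for each of the 9 genes with its 95% interval from limma, without a slide term (circles) and with the slide as a block (squares). With the slide term the differences of Cd3d, Cd3g and Nkg7 are 1.01, 0.79 and 0.97, none of them called, whereas Cd3e goes from 0.77 to -0.34, Cd8a from 0.47 to 0.045, Cd79a from -0.86 to -0.24, Cd79b from 0.61 to 0.29 and Ms4a1 from 0.96 to 0.48.

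The background correction turned the direction of several of these dim probes. With the normexp method on the unprocessed spot and background signals, the differences of Cd3d, Cd3g, Cd8a, Cd79b and Ms4a1 turned negative, and that of Nkg7 was 0.00 (offset 50). With the same offset it went from 0.77 to 0.10 for Cd3e and from -0.01 to -0.49 for Cd4. Under that correction limma called 0 of 16730 genes, and at an unadjusted p under 0.05 it gave 266 higher genes and 39 lower. The T cell genes had a median difference of 0.77 in the main setting and -0.45 with normexp, and the B cell genes 0.61 and -0.40. The difference of Cd79a was below 0 in every setting tried, but with the slide as a block it was -0.24 with a 95% interval of -1.53 to 1.05.

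**Figure D4:**
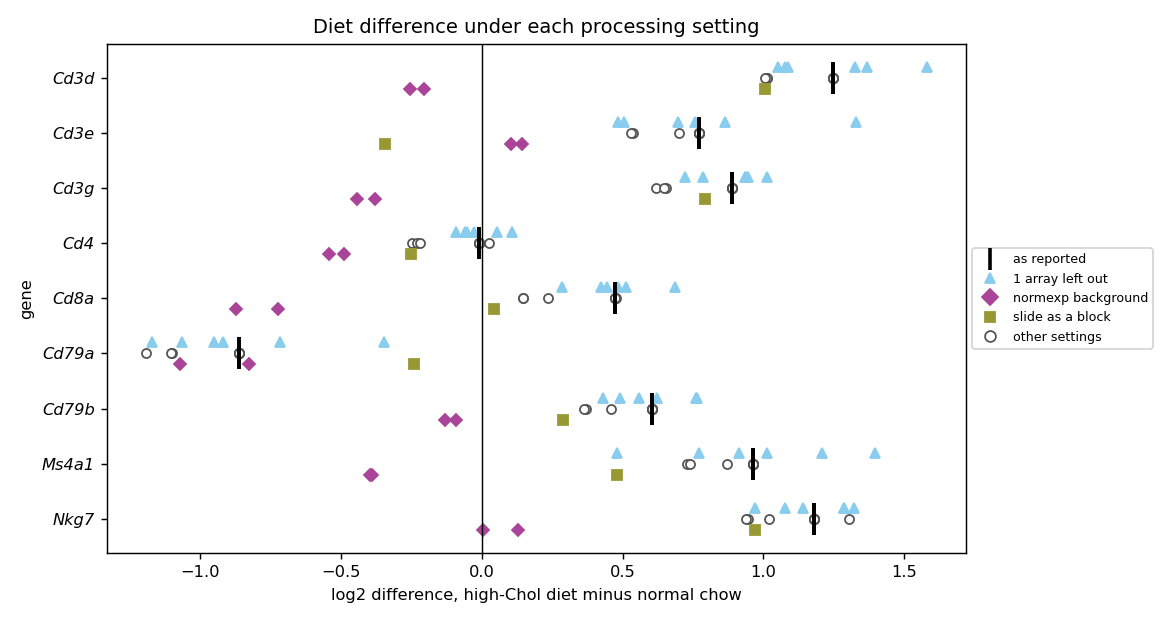
For each gene, the log2 difference between the diets (high-Chol diet minus normal chow) is plotted under every processing setting, with the reported value as a black bar. Diamonds are normexp background corrections with an offset of 50 or 0, squares the slide as a block, triangles fits without 1 array and open circles all other settings. The diamonds of Cd3d, Cd3g, Cd8a, Cd79b and Ms4a1 lie left of 0, and those of Nkg7 at 0.00 and 0.13.

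Further genes of the same cells were counted for comparison, from lists chosen with earlier results of these data known. Of 26 other T cell genes, 25 were on the array and 16 passed the filter on dim probes. Among these, 2 were called higher and 0 lower, against 2.69% and 0.227% of all genes, and both of the 2 passed the filter through the high-Chol diet alone, so that the count is a description. The median difference was 0.27 over all 25 without the filter, 0.54 over the 16, and 0.15 over the 16 with the slide as a block. The called genes were Bcl11b, a transcription factor of T cell identity, and Scap1 (Skap1), an adaptor of T cell receptor signalling. Scap1 gave -4.15, -4.34 and -4.79 with normal chow, against -3.37, -2.71 and -3.29 under high-Chol feeding, a difference of 1.30 (SE 0.25, limma adjusted p = 0.0450). Bcl11b had an adjusted p of 0.0344 (limma), but was not well above background on any normal chow array, and its measured means were -6.01 and -4.64, so that no fold can be given.

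All 23 other B cell genes were on the array and 18 passed the filter, 6 of them through the high-Chol diet alone. Of the 18, 2 were called higher, against 2.69% of all genes, and 0 lower. Of these 2, C2ta had passed the filter through the high-Chol diet alone, so that the count is a description. The median difference was 0.70 over all 23 without the filter, 0.67 over the 18, and 0.29 over the 18 with the slide as a block. The called genes were C2ta (Ciita), the master regulator of MHC class II genes, and Bank1, a scaffold protein of B cell receptor signalling. C2ta gave -4.37, -4.22 and -4.57 with normal chow, against -2.71, -2.28 and -2.40 under high-Chol feeding. Its difference was 1.93 (SE 0.18, limma adjusted p = 0.00627), with 2 of 3 normal chow arrays well above background, and C2ta is also used by macrophages and dendritic cells. Bank1 rose by 0.78 (SE 0.15, limma adjusted p = 0.0425).

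Of 21 other natural killer and cytotoxic genes, 13 passed the filter, 8 of them through the high-Chol diet alone. Of the 13, 4 were called higher, where 2.69% of all genes were, and 0 lower. Since 3 of the 4, Cd244, Klrd1 and Ifng, were among those 8, this count too is a description. The median difference was 1.04 over all 21 without the filter, 1.21 over the 13, and 0.89 over the 13 with the slide as a block. Cd244, a receptor of natural killer cells, was well above background on 1 of 3 normal chow arrays, and its measured difference of 2.28 (SE 0.36, limma adjusted p = 0.0253) rests on that dim baseline. Ccl5, a chemokine that attracts T cells, gave -0.30, -0.03 and -0.59 with normal chow, against 0.96, 2.08 and 1.28 under high-Chol feeding, a difference of 1.75 (limma, adjusted p = 0.0351). Klrd1, which encodes CD94, had a difference of 1.59 (limma, adjusted p = 0.0457). Ifng, the interferon gamma gene, was called (limma, adjusted p = 0.0111), but was not well above background on any normal chow array. With those arrays set to the floor described for Ms4a1, its ratio was 1.40-fold. That ratio is no lower limit, since its high-Chol levels, -4.47, -3.67 and -4.05, all lay below the floor of normal chow array 1, -3.60. In 10 of the 13 every high-Chol array was above every normal chow array, as in 11.8% of all genes, and 7 of the 10 had passed the filter through the high-Chol diet alone. The 1 gene of this list with the opposite order was Fasl, the death ligand of cytotoxic cells, named here after its values were seen, with a difference of -1.17 (limma, adjusted p = 0.0586). At an unadjusted p under 0.05, limma gave 6 higher genes and 0 lower in the T cell list, 11 and 0 in the B cell list, and 10 and 1, Fasl, in the cytotoxic list, where 12.3% of all genes were higher and 8.83% lower. In these lists 7 of 16, 6 of 18 and 8 of 13 tested genes had passed the filter through the high-Chol diet alone, so that these counts are descriptions.

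Genes listed as pan-leukocyte and genes of other leukocytes moved in the same livers, and their counts stand against 2.69% of all genes called higher. Of 12 genes listed as pan-leukocyte, 9 rose, among them Cd53 by 1.62 and Ptprc, which encodes CD45, by 1.46 (limma, adjusted p = 0.00908 and 0.0289). Ptprcap, named here after its values were seen, had the smallest difference of the 12, at 0.15 (limma, adjusted p = 0.709), and its diets overlapped. The summed level of these 12 genes (log2 of the sum of the scaled signals) was 3.85 to 3.996 on the normal chow arrays and 4.77 to 5.24 on the high-Chol arrays, against -0.00044 to 0.34 and 0.48 to 1.26 for the 9 lymphocyte markers. The summed level of the 25 other T cell genes overlapped between the diets, at 3.51 to 3.94 and 3.88 to 4.56. It was 2.53 to 2.62 and 2.83 to 3.26 for the 23 other B cell genes, and 0.86 to 1.199 and 1.87 to 2.79 for the 21 cytotoxic genes. Of 13 tested Kupffer cell and macrophage markers, 5 rose, Cd68 by 1.74 (limma, adjusted p = 0.00599), and the summed level of the 13 list genes with a value on every array was 7.50 to 7.73 on the normal chow arrays and 8.76 to 9.16 on the high-Chol arrays. Cd163, a scavenger receptor of macrophages named here after its values were seen, had the opposite order, with every high-Chol array below every normal chow array and a difference of -0.91 (limma, adjusted p = 0.154). Of 4 tested neutrophil markers 3 were called higher, among them S100a8 by 3.21 (limma, adjusted p = 0.00552) and Retnlg (limma, adjusted p = 0.0161). Retnlg was well above background on no normal chow array. With those arrays set to the floor described for Ms4a1, its ratio was 3.76-fold, which is no lower limit. The summed level of all 7 neutrophil markers on the array was 0.71 to 0.86 with normal chow and 3.24 to 3.98 with the high-Chol diet. Itgax, which encodes CD11c of dendritic cells and macrophages, was the 1 of 6 tested dendritic cell markers called higher (limma, adjusted p = 0.00599), with a measured difference of 3.27, and passed the filter through the high-Chol diet alone. None of the tested genes of hepatocytes (9), endothelial cells (7), erythroid cells (4) or the pancreas (5) was called by limma, where at an unadjusted p under 0.05 each list had 0 or 1 higher and 0 or 1 lower. The difference was below 0 in 8 of the 9 hepatocyte genes, 4 of them without overlap, where 14.0% of all genes had that order, and above 0 without overlap in Ttr, the transthyretin gene, at 0.48 (limma, adjusted p = 0.202), a gene named after its values were seen. The summed level of the hepatocyte genes was 10.98 to 11.18 on the normal chow arrays and 10.64 to 10.77 on the high-Chol arrays. The summed level of all 8 pancreatic genes was 2.82 to 3.11 and 2.42 to 2.79. Of 9 stellate cell and cholangiocyte markers, Col1a1 alone was called. With the slide as a block, no gene of any of these lists was called, Cd53 having an adjusted p of 0.0947 and Ptprc of 0.258 (limma). The part of these other cells in the lymphocyte values was not tested.

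**Figure D5:**
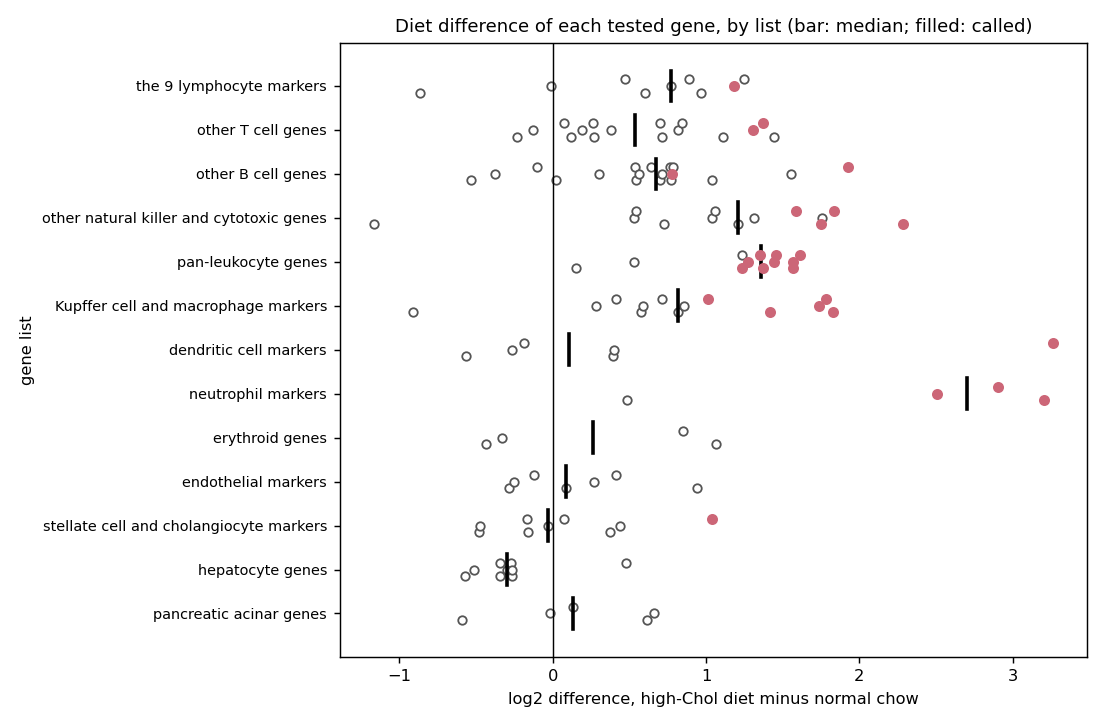
Each point is the log2 difference between the diets (high-Chol diet minus normal chow) of 1 tested gene, by gene list on the vertical axis. Filled points passed the test over all genes (limma, adjusted p under 0.05) and bars are medians. The 9 lymphocyte markers have 1 filled point, Nkg7, and a median of 0.77, whereas 9 of the 12 pan-leukocyte genes are filled, with a median of 1.36.

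The promoter windows of the 3 genes in which the high-Chol arrays were all higher are shown because Cd3d and Cd3g are neighbours in the genome. In RefSeq's mouse build GRCm38.p6 they lie head to head on chromosome 9, with 1355 bases between their annotated starts, whereas Nkg7 is on chromosome 7. Each window is the 250 bases before the start, in the direction of the gene. Capitals mark matches, on either strand and not overlapping each other, to the RUNX motif TGTGGT, the ETS motif AGGAAG or the E-box CACCTG.
Cd3d, chr9:44981536-44981785, plus strand: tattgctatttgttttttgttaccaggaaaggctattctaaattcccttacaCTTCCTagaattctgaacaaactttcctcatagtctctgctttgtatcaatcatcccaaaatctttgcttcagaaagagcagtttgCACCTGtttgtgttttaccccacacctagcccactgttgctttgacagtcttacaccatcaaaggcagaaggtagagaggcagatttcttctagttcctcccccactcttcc
Cd3g, chr9:44980432-44980681, minus strand: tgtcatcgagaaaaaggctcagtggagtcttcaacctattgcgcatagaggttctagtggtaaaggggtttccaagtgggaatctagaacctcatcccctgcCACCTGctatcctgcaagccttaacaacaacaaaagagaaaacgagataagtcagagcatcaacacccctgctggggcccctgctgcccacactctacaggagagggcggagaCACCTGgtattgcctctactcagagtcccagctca
Nkg7, chr7:43436888-43437137, plus strand: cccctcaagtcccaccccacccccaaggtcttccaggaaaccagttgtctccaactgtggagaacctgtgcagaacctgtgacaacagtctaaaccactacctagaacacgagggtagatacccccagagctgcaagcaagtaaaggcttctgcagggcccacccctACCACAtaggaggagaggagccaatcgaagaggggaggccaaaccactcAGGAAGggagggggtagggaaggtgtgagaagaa
The E-box letters occur in the windows of Cd3d and Cd3g, in that of Cd79a, the gene with the opposite order, and in 17.2% of all 32851 windows. Of the 6 genes with a window, which also include Cd3e, Cd8a and Cd79a, the E-box was in 3, the ETS motif in 4, the RUNX motif in 1 and the octamer ATGCAAAT, also searched, in 0. Over all windows, 29.5% held the ETS motif, 14.0% the RUNX motif and 1.60% the octamer. The genes not matched were Cd4, Cd79b and Ms4a1.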

How the data were processed

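The authors hybridised Cy3-labelled cRNA to one-colour arrays and deposited, per the file headers, Agilent Feature Extraction output with the processed intensity of each spot; the submitters' notes name version 9.1, while slide 1 was read with 9.5. They also deposited 1 log2 value per probe and diet, the authors' mean, whose exact scaling is not given in the sources used here; 9 of the 15 probes are in that table. Here each log2 intensity was set relative to the 75th percentile of the 43379 non-control spots, outlier spots were left out, and spots of a probe were averaged. A probe was kept if at least 1 of its spots was well above background on every array of a diet, and the brightest probe stood for its gene. Differences were tested with limma 3.58.1 (R 4.3.3) over 16730 genes, after a check on simulated data, and called at a Benjamini-Hochberg adjusted p under 0.05. A single gene was also given an exact permutation test. Named genes are all 9 markers, up to 4 called genes per further list with the largest differences, defining markers, and the 5 genes most like the CD3 and B cell profiles. The members and lists were chosen with earlier results of these data known. Alternatives covered background correction, scaling, filter, outliers, probe choice, slide, left-out arrays, the methods' t-test (the unmoderated test, on the same values) and the authors' table. The number of arrays limits the precision.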

Additional observations from a re-analysis of the deposited data

How the results depend on the processing

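The count of 1 of the 9 genes called higher (Nkg7) held with probes well above background on all 6 arrays, with a gene's probes averaged, with every probe by itself (where the call is that of the second Nkg7 probe, dim on normal chow array 1, and the first had an adjusted p of 0.0505) and with most spots of a probe required above background, an alternative chosen after seeing the data. It was 0 with normexp (offset 50, and offset 0, added after seeing the data), median scaling, quantile normalization, no filter on dim probes, outlier spots kept, the slide as a block and the methods' t-test. Leaving out 1 array gave 0 to 5. No setting called any of the 9 lower. The methods' t-test gave 3 of the 9 higher and 0 lower at its own threshold, an unadjusted p under 0.05, where 8.38% of all genes were higher and 8.29% lower. The median difference of the T cell genes was -0.45 with normexp at an offset of 50, -0.38 at an offset of 0 and 0.045 with the slide as a block, and 0.48 to 0.94 without 1 array. That of the B cell genes was -0.40 and -0.39 with normexp, and -0.37 in the authors' values, which hold Cd79a and Cd79b alone, 0.29 with the slide as a block, and 0.43 to 0.76 without 1 array. With normexp at offsets of 50 and 0, the differences turned to -0.26 and -0.21 for Cd3d, -0.45 and -0.38 for Cd3g, -0.72 and -0.87 for Cd8a, -0.13 and -0.091 for Cd79b, and -0.40 and -0.39 for Ms4a1, and the cause was not tested. Cd3e turned to -0.34 with the slide as a block. Cd4 turned to 0.027 with outlier spots kept, to 0.06 without normal chow array 3 and to 0.11 without high-Chol array 1, with -0.092 the lowest without 1 array. It was -0.49 and -0.54 with normexp, -0.25 with median scaling and with the slide as a block, -0.23 with quantile normalization and -0.22 in the authors' means. Median scaling moved the median of all genes from -0.02 to -0.26, and kept the direction of every one of the 9. Calls over all genes went from 450 higher and 38 lower to 0 and 0 with normexp, 11 and 0 with the slide as a block, 26 and 0 with no filter on dim probes, 4 and 1 with the methods' t-test, 42 and 0 without normal chow array 2, and 3160 and 785 without high-Chol array 1. No paired analysis was possible because the arrays carry no number that ties an array of one diet to an array of the other. Cd3d, Cd3g, Cd8a and Cd79a each had an array not well above background, which limits their values.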

Other observations

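Among 13954 genes outside the lists and well above background on all 6 arrays, those whose levels followed the mean of the CD3 chains most closely were Narg2, Camk2d, Scyl1bp1, Tnfsf13 and Kbtbd11, each with Pearson's r of 0.99 across the 6 arrays. Their differences between the diets ran from 0.28 to 0.84. In all, 638 of these genes (4.57%) had r above 0.9 with that profile. The profile itself was -3.17, -2.89 and -3.37 with normal chow, against -2.66, -1.79 and -2.07 under high-Chol feeding. Against the mean of the B cell genes, 32 genes had r above 0.9, led by 4833418A01Rik, Kifap3, Ran, Tubb3 and Elp4, with differences of 0.04 to 0.17. The B cell mean was -2.66, -3.15 and -3.65 with normal chow, against -2.98, -2.58 and -3.19 under high-Chol feeding, and did not separate the diets. These likenesses are over 6 arrays that share a diet and a slide, and were chosen from many genes, so that they describe these arrays and no more.

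The authors' value of each diet gave Nkg7 a difference of 0.94 and 1.19 with its 2 probes, Cd3d 1.01 and Cd79a -1.11. Differences in the authors' table ran lower than those relative to the 75th percentile, with a median offset of -0.24 over 15978 shared probes. Ms4a1 was not in it.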
